A study of Homo sapiens with 10 samples.

Results

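The clustered protocadherin genes are 3 neighbouring arrays on the long arm of human chromosome 5 that encode cell surface adhesion proteins of the cadherin superfamily. The members were the protein-coding gene rows of the count table whose symbols begin with PCDHA, PCDHB or PCDHG followed by A, B, C or a digit: 53 of 60651 genes, with 15 in the alpha, 16 in the beta and 22 in the gamma cluster. RNA was sequenced from 10 libraries of cultured cells, 2 for each of 5 groups. HT29, an established line from a colorectal cancer, was kept in the solvent DMSO or in VXN at 10 µM, a compound known here only by that code. The t-hESC cells, labelled as pluripotent stem cells that are transformed, were kept in DMSO, in VXN at 10 µM or in BIX at 1 µM. BIX is the usual short name of a compound that blocks G9a and GLP, enzymes that methylate histone H3. Exposure was 48 hours in every group according to the labels, whose treatment field reads DMSO for all samples, so the compounds were taken from the sample titles.

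In the alpha and gamma clusters each gene has its own large first exon, the variable exon, with its own promoter, and these exons are spliced to a few constant exons at the end of the cluster. The beta genes have a single exon each and no constant exons. In neurons the choice of variable exons by promoter, with CTCF, cohesin and DNA methylation involved, gives each cell its own set of surface proteins. The genes called C type (PCDHAC1, PCDHAC2, PCDHGC3, PCDHGC4 and PCDHGC5) stand at the ends of the alpha and gamma arrays and are regulated apart from the other variable exons.

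On GRCh38.p14 the alpha genes covered chr5:140786140-141012347, the beta genes chr5:141051374-141249365 and the gamma genes chr5:141330514-141512975, all on the plus strand. In the RefSeq table all 15 alpha genes ended at base 141012347 and all 22 gamma genes at base 141512975, at the last constant exon, while the 16 beta genes had 16 different ends. A read from a constant exon therefore lies within every gene of its cluster. How reads that lie in several genes were counted was not stated in the labels or notes.

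The bases before the starts of 5 genes are shown. PCDHAC2, PCDHAC1 and PCDHGC3 are C-type genes that were called under a compound with and without the shared count described below, PCDHGB6 is a gamma B gene called in both t-hESC comparisons, and PCDHA12 is an alpha gene called in neither of them. Each run is the 150 bases before the gene's start in RefSeq on the plus strand of GRCh38.p14, 5′ to 3′, with CG dinucleotides, the sites of DNA methylation, in capitals.
PCDHAC2 (chr5:140966326-140966475): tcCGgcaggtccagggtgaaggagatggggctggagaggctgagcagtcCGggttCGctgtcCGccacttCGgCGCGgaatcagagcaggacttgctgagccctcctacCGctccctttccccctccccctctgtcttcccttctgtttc
PCDHAC1 (chr5:140926149-140926298): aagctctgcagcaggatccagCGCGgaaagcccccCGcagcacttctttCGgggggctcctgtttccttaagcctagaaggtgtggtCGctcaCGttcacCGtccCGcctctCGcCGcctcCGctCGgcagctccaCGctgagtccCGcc
PCDHGC3 (chr5:141475816-141475965): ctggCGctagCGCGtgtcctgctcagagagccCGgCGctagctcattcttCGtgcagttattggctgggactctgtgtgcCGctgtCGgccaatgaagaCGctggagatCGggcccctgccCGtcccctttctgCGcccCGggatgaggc
PCDHGB6 (chr5:141407871-141408020): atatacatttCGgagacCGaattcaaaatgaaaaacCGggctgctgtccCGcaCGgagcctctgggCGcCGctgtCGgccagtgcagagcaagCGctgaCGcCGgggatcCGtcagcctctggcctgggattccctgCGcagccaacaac
PCDHA12 (chr5:140875158-140875307): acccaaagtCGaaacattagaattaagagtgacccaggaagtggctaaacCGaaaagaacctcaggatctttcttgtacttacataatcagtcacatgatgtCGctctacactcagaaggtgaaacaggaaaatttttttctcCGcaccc

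These 5 windows held 8, 14, 13, 13 and 4 CG dinucleotides, for PCDHAC2, PCDHAC1, PCDHGC3, PCDHGB6 and PCDHA12, so PCDHGB6 had as many as PCDHGC3. Their GC content was 64.0%, 66.0%, 65.3%, 61.3% and 41.3%. PCDHGC4, a C-type gene also called with and without the shared count, is not shown. Its window held 8 CG dinucleotides and had a GC content of 58.7%, both below PCDHGB6. RefSeq promoters of 300 bases (250 before the start and 50 after) were at hand for 47 members, and PCDHA3, PCDHA13, PCDHB6, PCDHB11, PCDHGA12 and PCDHGC5 had no entry. The GC content was 59.0% to 66.0% in the 4 C-type genes with an entry and 32.3% to 51.3% in the other 43 members, so the ranges did not overlap. Among the others the medians were 36.0% in 11 alpha, 40.9% in 14 beta, 38.3% in 11 gamma A and 48.3% in 7 gamma B genes, against 58.7% over all 35116 promoters of the table. CG dinucleotides numbered 15 to 27 in the C-type promoters and 2 to 16 in the others, with PCDHGB6 at 16, so these ranges overlapped.

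**Figure D1:**
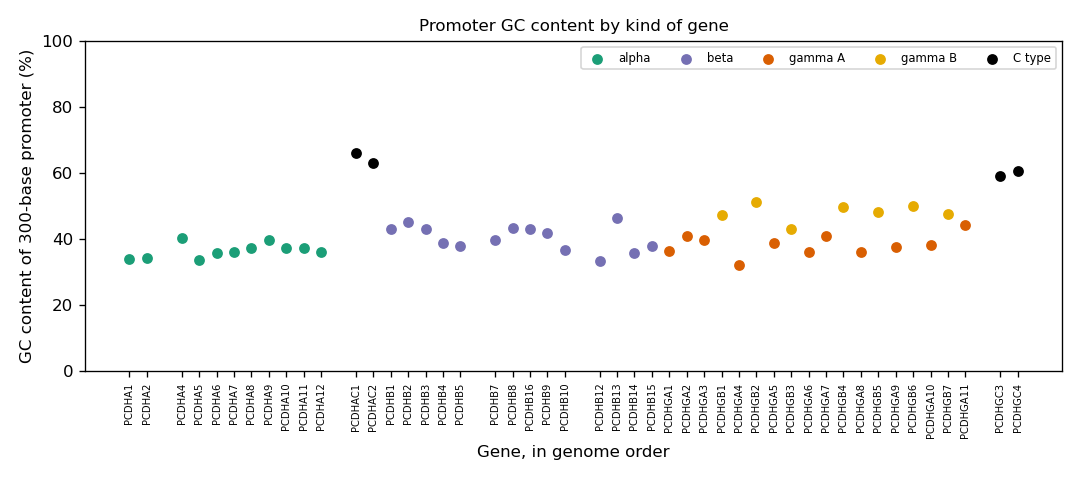
GC content (percent) of the 300-base RefSeq promoter of each member with an entry, in genome order and coloured by kind of gene. The 4 C-type genes lie at 59.0% to 66.0% and the other members at or below 51.3%.

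3 motifs were searched on both strands of these promoters. CGCT, the core of a sequence element known from these promoters, was in 46 of 47 members, or 97.9%, and in 70% of all promoters. The core CTCF motif, searched as a single consensus sequence, was in 0 of 47 members and in 0.0655% of all promoters. With so rare a sequence, 0 among 47 promoters cannot decide whether they hold CTCF sites. The run GGTGGCGCT, which overlaps CGCT, was chosen after the promoters had been read, from a scan of 41313 words of 5 lengths (6 to 10 letters), so its frequency is a description only. It was in 13 of 47 members (27.7%) and in 0.501% of all promoters, and all 13 were beta genes. PCDHB1 was the 1 beta gene of the 14 with an entry that did not hold it. Examples from the most abundant beta genes are shown with 30 bases each, the run in capitals.
PCDHB2 (chr5:141094545-141094574): agagacgcggGGTGGCGCTgcagccttaga
PCDHB10 (chr5:141192300-141192329): gaggccacacGGTGGCGCTgcaggctaaag
PCDHB14 (chr5:141223264-141223293): ggagacacatGGTGGCGCTacaggataaga

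Total gene counts ran from 13137026 to 24492838 per library, and a count of 0 allows up to 3 counts, or 0.124 to 0.220 CPM (counts scaled to the normalized library size), for counting error only. The series describes the 2 libraries of a group as biological replicates, without saying whether they were separate cultures, so the spread behind each p may be technical. The labels' cell types were checked on marker genes. 7 pluripotency markers summed to 4306 to 4755 CPM in t-hESC libraries and 4.23 to 4.33 CPM in HT29 DMSO. 7 colon epithelial markers summed to 1077 to 1085 CPM in HT29 DMSO and 6.49 to 11.2 CPM in t-hESC. Of 8 fibroblast markers, THY1 made up most of the t-hESC sum of 664 to 935 CPM, and DCN and LUM had at most 2 counts in any t-hESC library. 8 neural markers summed to 176 to 203 CPM in t-hESC and 11.7 to 13.2 CPM in HT29.

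The counts of the alpha genes held a common part. In HT29 VXN replicate 1, 13 of the 15 alpha genes had a count of exactly 10, and in replicate 2 9 genes had 9 and 14 lay within 1 of the lowest. In the HT29 DMSO libraries 11 genes had a count of 2 in replicate 1 and 13 had a count of 1 in replicate 2. The lowest count among a cluster's members in a library is called the shared count here, and the rest of a member's count is its count above the shared one. The shared count is a low estimate of the common part, and at 1 to 3 counts it carries the error of whole numbers.

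The same holds in t-hESC at a higher level. The alpha shared count was 32 and 38 under DMSO, 32 and 27 under BIX, and 38 and 42 under VXN, and PCDHA9 was the lowest gene in all 6 libraries. In the gamma cluster it was 50 and 58 under DMSO, 51 and 41 under BIX, and 52 and 57 under VXN. Taken over all members, the shared counts made up 34.9% to 38.3% of the summed alpha counts and 48.8% to 51.5% of the summed gamma counts in t-hESC. In HT29 the gamma shared count was 1 in both DMSO libraries and 3 in both VXN libraries. No such common part was seen among the beta genes, whose lowest count was 0 or 1 in every library. Because of it, alpha or gamma members that are called together are not separate measurements. Calls and member medians are therefore given on the counts as deposited and also after the shared count had been subtracted from every alpha and gamma member and all genes had been refitted. In that refit 34 members passed the count filter (11 alpha, 10 beta and 13 gamma). It was chosen after the counts had been seen. The refit takes what remains as plain counts and leaves out the counting error of the subtracted part. Its standard errors and p may therefore be too small.

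**Figure D2:**
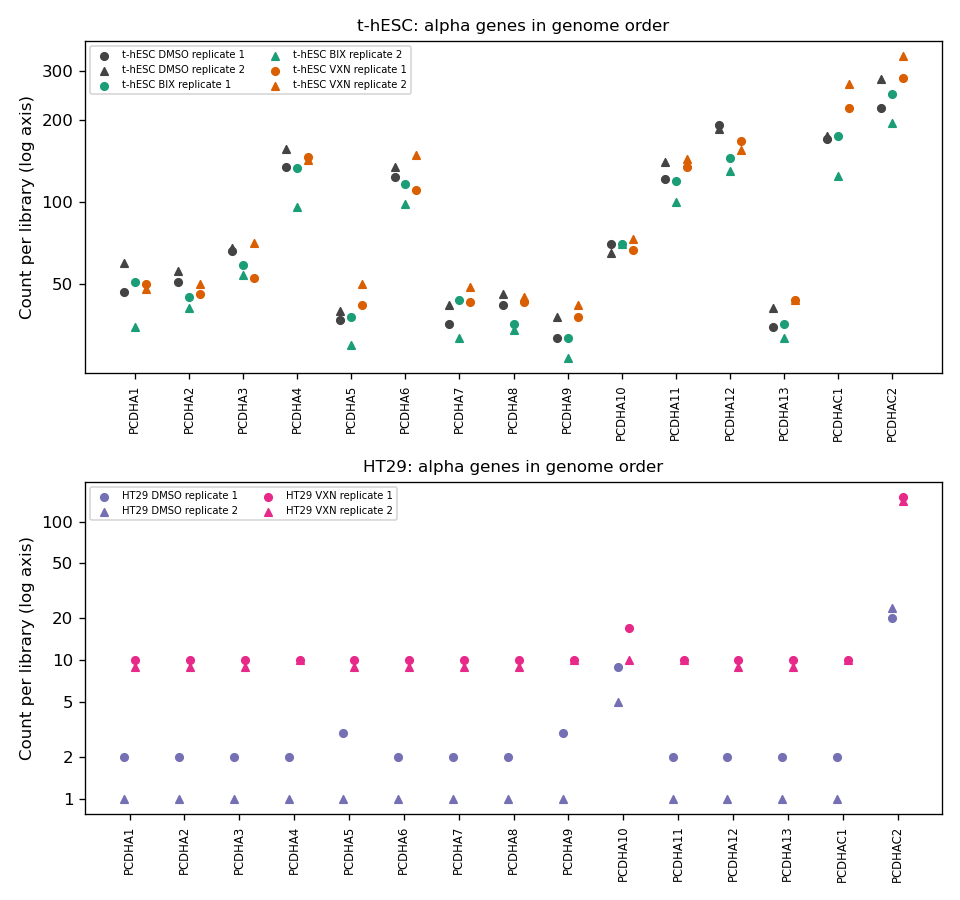
Counts per library (log axis, not scaled to depth) of the 15 alpha genes in genome order, in the 6 t-hESC libraries (top) and the 4 HT29 libraries (bottom); each point is 1 library. In HT29 the genes other than PCDHA10 and PCDHAC2 sit within 1 count of each other in each library, and PCDHAC2 stands at 20 and 24 under DMSO and 150 and 142 under VXN.

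The untreated lines differed widely in these genes. Summed alpha counts came to 73.8 ± 2.6 CPM in t-hESC DMSO and 2.07 ± 0.39 CPM in HT29 DMSO, beta counts to 13.9 ± 1.5 and 1.05 ± 0.32 CPM, and gamma counts to 120 ± 1.7 and 8.76 ± 0.43 CPM (SD, n = 2). The alpha and gamma sums hold the shared count once for every member. Without it they were 47.2 and 1.13 CPM for alpha and 60.2 and 7.84 CPM for gamma. Of the 53 members 47 passed the count filter over all 10 libraries (15 alpha, 10 beta and 22 gamma), but in HT29 alone 7 passed and in t-hESC alone 45. The 6 that did not pass, PCDHB4, PCDHB5, PCDHB6, PCDHB7, PCDHB8 and PCDHB12, had 0 to 10 counts in every library. All 47 tested members were lower in HT29 under DMSO (edgeR quasi-likelihood test, Benjamini-Hochberg adjusted p under 0.05), where 45.6% of all 22495 tested genes were lower, 38.9% higher and 84.4% called in all. Most of these members passed the filter only through their level in t-hESC, so their count carries no weight of its own. In the refit without the shared count 31 of 34 members were lower, 1 was higher and 2 were not called, and in the gamma cluster 10 of 13 were lower.

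Counts are not scaled to length here, so they describe each gene and not an order among genes. In t-hESC DMSO PCDHAC2 had 221 and 281 counts, PCDHA12 191 and 185, and PCDHAC1 170 and 175. After removal of the shared count 10 of 15 alpha genes kept at least 10 counts in both DMSO libraries. PCDHA9, PCDHA13, PCDHA7, PCDHA5 and PCDHA8 stood within 10 counts of the lowest alpha gene there. In the gamma cluster PCDHGB6 had 284 and 314 counts, PCDHGC3 278 and 314, PCDHGC4 251 and 312, and PCDHGB7 198 and 242. 12 of 22 gamma genes kept at least 10 counts above the shared count in both libraries. Fewer cells with a promoter in use and less RNA per cell cannot be told apart in such bulk samples.

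In HT29 few of these genes had counts of their own. In its DMSO libraries PCDHGA10 had 93 and 90 counts, or 3.83 and 3.84 CPM, which was 46.5% and 50.6% of the gamma counts above the shared one. PCDHGA6 had 23 and 13 counts, PCDHGC3 20 and 16, and PCDHGB7 19 and 19. In t-hESC DMSO PCDHGA10 had 92 and 113 counts, of which 42 and 55 lay above the shared count. As deposited, PCDHGA10 was lower in HT29 by a log2 difference of -0.44 ± 0.15 (SE, edgeR adjusted p = 0.00655). With the shared count removed the direction turned, to 0.62 ± 0.19 higher in HT29 (SE, edgeR adjusted p = 0.00172), and that fit called 38.8% of all genes higher, 45.6% lower and 84.4% in all. DESeq2 gave -0.44 without a call on the counts as deposited (adjusted p = 0.0658). PCDHGA10 was singled out after its values had been seen, and the p of the refit leaves out the error of the subtracted count. PCDHGC4, in contrast, had 1 and 1 counts in HT29 DMSO, all of them shared, against 251 and 312 in t-hESC DMSO.

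**Figure D3:**
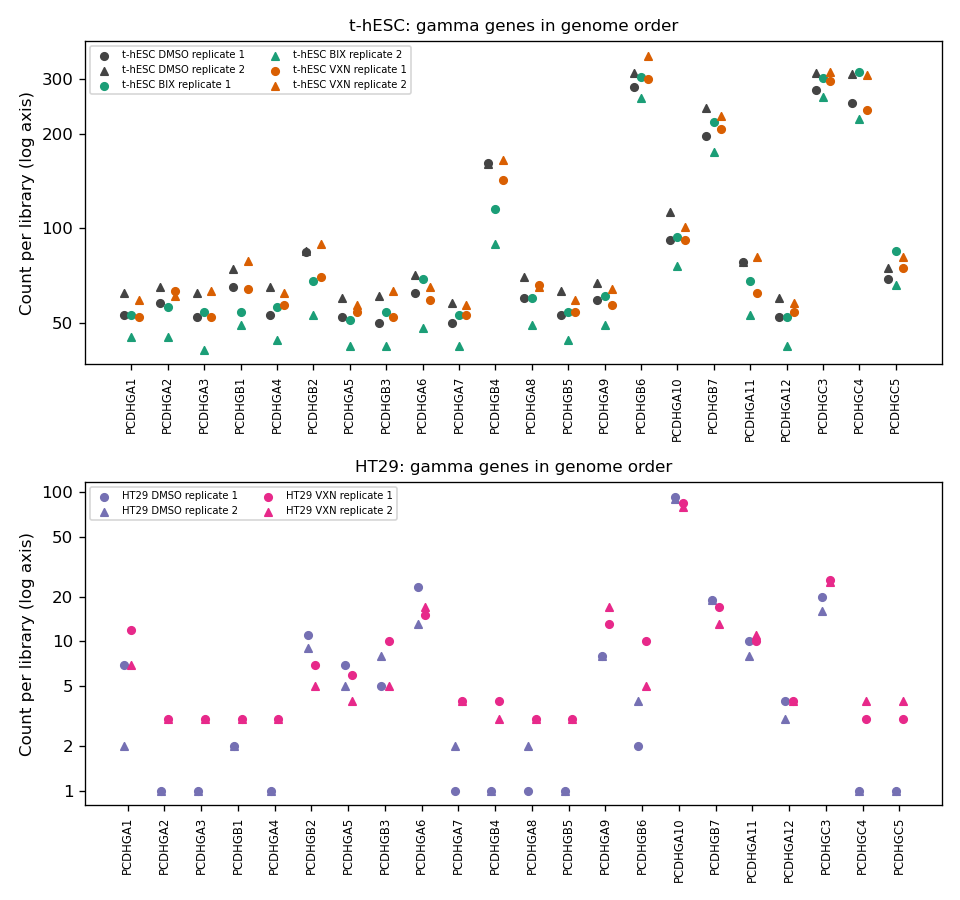
Counts per library (log axis, not scaled to depth) of the 22 gamma genes in genome order, in the 6 t-hESC libraries (top) and the 4 HT29 libraries (bottom); each point is 1 library. PCDHGA10 has 80 to 93 counts in HT29 and 76 to 113 in t-hESC, while PCDHGC4 has 1 to 4 and 223 to 317.

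The beta genes share no constant exons, so their counts were also scaled to length. How reads that match several beta genes were counted is not known, so the order among these genes is uncertain. Scaled to the RefSeq span, PCDHB2 stood at 1.15 CPM per kilobase in t-hESC DMSO, PCDHB10 at 0.751 and PCDHB14 at 0.528, and the other 13 beta genes lay between 0 and 0.190. PCDHB2 had 98 and 85 counts under DMSO, 55 and 66 under BIX and 100 and 100 under VXN in t-hESC, and 0 to 3 counts in HT29. PCDHB10 had 23 to 51 counts over the 6 t-hESC libraries and 0 or 1 in HT29. PCDHB14 had 4 and 12 counts under DMSO and 6 and 7 under VXN in HT29. Of the 10 tested beta genes edgeR called 0 under BIX, under VXN in either line or for the difference of the VXN effects, and 0 had an unadjusted p under 0.05. Over all tested genes 23.1%, 29% (t-hESC), 60% (HT29) and 43.2% were called in these comparisons. DESeq2 called 0 as well, but gave an adjusted p to 1 of the 10 in each t-hESC comparison, to 10 in HT29 and to 4 for the difference. Depth limits what could be seen there, as 14 of the 16 beta genes had 3 counts or fewer in both HT29 DMSO libraries.

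**Figure D4:**
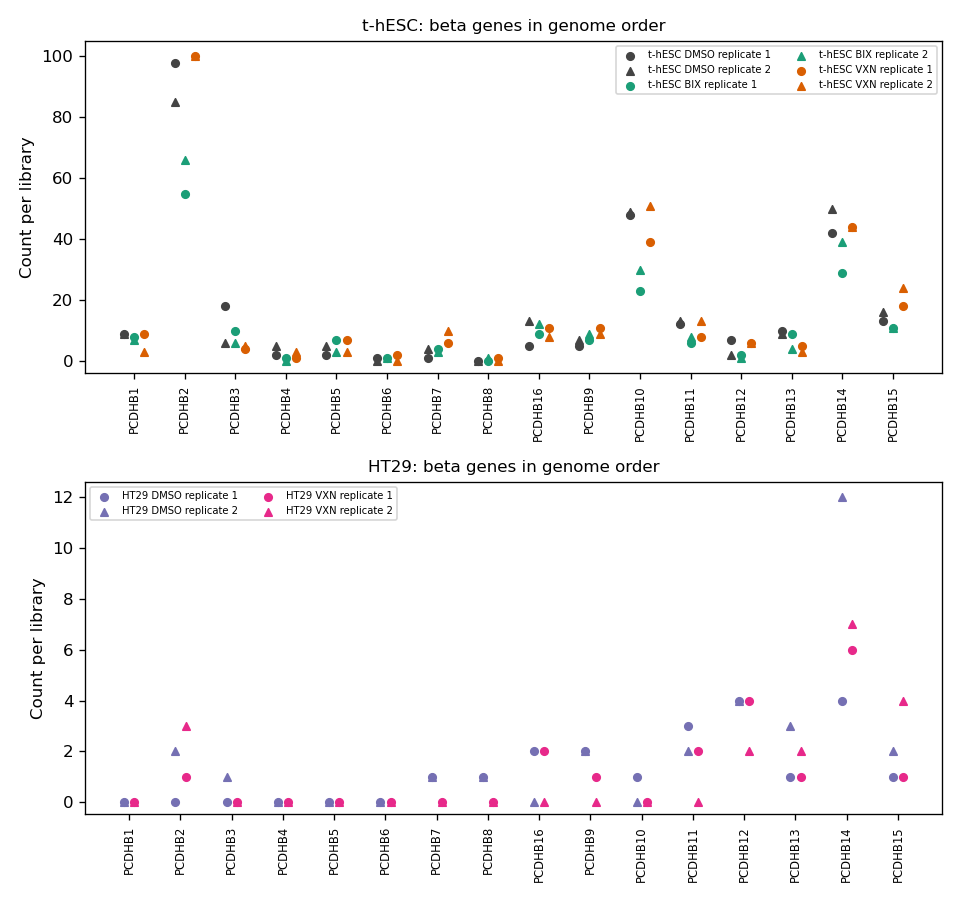
Counts per library (linear axis, not scaled to depth) of the 16 beta genes in genome order, in the 6 t-hESC libraries (top) and the 4 HT29 libraries (bottom); each point is 1 library. PCDHB2, PCDHB10 and PCDHB14 lead in t-hESC, and no beta gene exceeds 12 counts in HT29.

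The comparison of VXN with DMSO in HT29 asked which members answered the compound in colorectal cancer cells. PCDHAC2, a C-type gene whose variable exon is the last of the alpha array, rose. It had 20 and 24 counts under DMSO and 150 and 142 under VXN, or 0.824 and 1.02 against 6.56 and 7.20 CPM. Both VXN libraries lay far above both DMSO libraries. The log2 fold change was 2.89 ± 0.19 (SE, edgeR adjusted p = 2.52e-21), a 7.39-fold rise, and it was 2.89 as well with the shared count removed. Under VXN the level in HT29 stayed below that in t-hESC VXN, where PCDHAC2 stood at 17.0 and 19.2 CPM.

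As deposited, 18 members were called higher and 0 lower, where 33% of all tested genes were called higher, 26.9% lower and 60% in all. The 18 were all 15 alpha genes and the gamma genes PCDHGA1, PCDHGA9 and PCDHGB6. Above the shared count PCDHAC2 held 140 of 147 alpha counts in replicate 1 and 133 of 138 in replicate 2, or 95.2% and 96.4%. Of the other 14 alpha genes, 13 were at 0 in replicate 1 and 9 in replicate 2, and in replicate 2 none exceeded 1. PCDHA10 was the only other alpha gene with counts above the shared one in all 4 HT29 libraries, at 7 and 4 under DMSO and 7 and 1 under VXN. After removal of the shared count 1 member, PCDHAC2, was called among 34 tested, where 32.9% of all genes were called higher, 27% lower and 59.9% in all. The log2 fold change of PCDHA10 turned from 1.09 to -0.29 there. By the authors' deposited table of this comparison all alpha genes except PCDHA10 were higher, 14 in number, and no beta or gamma gene was called.

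The shared count itself moved with PCDHAC2. It was 2 and 1 under DMSO and 10 and 9 under VXN, which is 0.111 and 0.0435 of the PCDHAC2 count above it under DMSO and 0.0714 and 0.0677 under VXN. In t-hESC, where other alpha genes also had counts of their own, that ratio was 0.141 to 0.169. Taken over all alpha members, the shared counts were 0.536 to 0.621 of the summed counts above them in t-hESC. In HT29 they were 1.11 and 0.556 under DMSO and 1.02 and 0.978 under VXN. The reason for the difference between the lines was not tested.

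Changes in the HT29 gamma genes were small in counts. PCDHGA9 had 8 and 8 counts under DMSO and 13 and 17 under VXN, a log2 fold change of 1.06 ± 0.42 (SE, edgeR adjusted p = 0.0245). PCDHGB6 went from 2 and 4 to 10 and 5 counts (edgeR adjusted p = 0.0420), and PCDHGA1 from 7 and 2 to 12 and 7 (edgeR adjusted p = 0.0483), so the PCDHGA1 counts of the groups touched at 7. DESeq2 called none of the 3 (adjusted p of 0.0843 for PCDHGA9, 0.0797 for PCDHGB6 and 0.117 for PCDHGA1), and edgeR called none without the count filter. After removal of the shared count PCDHGA9 and PCDHGB6 were not called (edgeR adjusted p = 0.104 and 0.162), and PCDHGA1 no longer passed the filter. Each call was also lost when 1 HT29 library was left out, for PCDHGA9 DMSO replicate 1, DMSO replicate 2 or VXN replicate 2, for PCDHGB6 DMSO replicate 1 or VXN replicate 1, and for PCDHGA1 DMSO replicate 2 or VXN replicate 1. PCDHGA10, the leading gamma gene of HT29, had 85 and 80 counts under VXN against 93 and 90, or 3.72 and 4.06 against 3.83 and 3.84 CPM. The summed gamma level above the shared count was 7.84 CPM under DMSO and 8.01 CPM under VXN.

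Markers of pluripotent cells also moved between these groups. Summed over 7 genes they came to 4.23 to 4.33 CPM in HT29 DMSO and 8.13 to 11.4 CPM in HT29 VXN, with LIN28A, DPPA4 and TDGF1 called higher and none lower. LIN28A had 1 and 0 counts under DMSO and 8 and 17 under VXN. The 8 fibroblast markers summed to 3.29 to 4.24 and 7.40 to 9.67 CPM, with COL1A1, COL1A2 and THY1 called higher. In the HT29 VXN libraries PCDHA12 had 0 and 0 counts above the shared one, PCDHGC4 0 and 1, and PCDHAC1 0 and 1. There PCDHAC2 had 140 and 133. PCDHA12 and PCDHGC4 had over 100 counts in every t-hESC library, where the 7 pluripotency markers summed to 4306 to 4755 CPM. At the far lower marker sum of HT29 VXN, counts of 0 or 1 in these genes decide nothing about the markers. The part of these markers in the change of PCDHAC2 was not tested.

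In t-hESC the same compound raised both alpha C-type genes. PCDHAC1 stood at 9.34 and 8.24 CPM under DMSO and 13.2 and 15.3 under VXN, a log2 fold change of 0.70 ± 0.11 (SE, edgeR adjusted p = 1.11e-06). PCDHAC2 stood at 12.1 and 13.2 CPM under DMSO and 17.0 and 19.2 under VXN, with a log2 fold change of 0.51 ± 0.095 (SE, edgeR adjusted p = 1.36e-05). The groups did not overlap for either gene, nor for many members that were not called, such as PCDHA11 and PCDHA7. Between PCDHA12 and PCDHAC1 lies PCDHA13, which was not called (1.92 and 1.93 CPM under DMSO, 2.63 and 2.48 under VXN) and had 2 to 6 counts above the shared one in these libraries. PCDHA12 was at 10.5 and 8.71 CPM under DMSO and 9.99 and 8.75 under VXN. Sums of cell type markers moved between the same groups. The sum of the 8 fibroblast markers, most of it THY1, was 664 to 666 CPM under DMSO and 935 CPM in both VXN libraries. Of 6 tested, THY1 was called higher and POSTN lower, so the sum mainly follows 1 gene. The pluripotency sum went from 4655 to 4755 down to 4306 to 4376 CPM (1 of 7 higher, 4 lower), and the neural sum from 196 to 203 down to 176 to 184 CPM (1 of 7 tested higher, 3 lower). Their part in the result was not tested.

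In all, 4 members were called higher and 0 lower under VXN in t-hESC, where 14.5% of all tested genes were called higher, 14.6% lower and 29% in all. Beside the alpha pair they were PCDHGB6 and the C-type gene PCDHGC3. PCDHGB6 stood at 15.6 and 14.8 CPM under DMSO and 18.0 and 20.1 under VXN, a log2 fold change of 0.33 ± 0.090 (SE, edgeR adjusted p = 0.00309). PCDHGC3 stood at 15.3 and 14.8 CPM and at 17.7 and 17.9, a log2 fold change of 0.24 ± 0.089 (SE, edgeR adjusted p = 0.0301). The refit without the shared count again called PCDHAC1, PCDHAC2, PCDHGB6 and PCDHGC3, with 14.5% of all genes higher, 14.6% lower and 29.1% in all. Leaving out any 1 of the 4 t-hESC DMSO and VXN libraries ended the call of PCDHGC3, and leaving out DMSO replicate 2 or VXN replicate 2 that of PCDHGB6. The median log2 fold change over the 47 tested members was 0.19, against 0.0036 over all tested genes, and 0.10 over 34 members in the refit. DESeq2 called 2 members, PCDHAC1 and PCDHAC2, and gave PCDHGB6 and PCDHGC3 an adjusted p of 0.0943 and 0.235. In the authors' deposited table no member was called, and 32 of the 53 had no adjusted p there.

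Under BIX in t-hESC edgeR called 4 members higher, PCDHGC3, PCDHGC4, PCDHGC5 and PCDHGB6, where 10.9% of all tested genes were called higher. Between PCDHGB6 and the C-type genes lie PCDHGA10, PCDHGB7, PCDHGA11 and PCDHGA12, which were not called. PCDHGC3 stood at 15.3 and 14.8 CPM under DMSO and 19.1 and 19.3 under BIX, a log2 fold change of 0.35 ± 0.091 (SE, edgeR adjusted p = 0.00197). PCDHGC4 stood at 13.8 and 14.7 CPM and at 20 and 16.4, a log2 fold change of 0.36 ± 0.10 (SE, edgeR adjusted p = 0.00508). PCDHGC5 was at 3.79 and 3.53 CPM under DMSO and 5.36 and 4.84 under BIX, a log2 fold change of 0.49 ± 0.18 (SE, edgeR adjusted p = 0.0371). PCDHGB6 was at 15.6 and 14.8 CPM under DMSO and 19.2 in both BIX libraries, a log2 fold change of 0.34 ± 0.093 (SE, edgeR adjusted p = 0.00405). For each of the 4 both BIX libraries lay above both DMSO libraries. The same was true of many members that were not called, such as PCDHA9 and PCDHGA7, so it does not set the 4 apart. The fibroblast markers summed to 664 to 666 CPM under DMSO and 788 to 829 CPM under BIX, with COL1A1, COL1A2 and THY1 called higher among 6 tested and none lower. The pluripotency sum was 4635 to 4694 CPM under BIX (3 of 7 higher, 1 lower) and the neural sum 183 to 184 CPM (1 of 7 tested lower). Their part in the result was not tested.

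These were the 4 members called, all higher, where 10.9% of all tested genes were called higher, 12.2% lower and 23.1% in all. The median log2 fold change was 0.17 over the 47 tested members and 0.0015 over all tested genes, and it was 0.076 over 34 members, 20 of them above 0, after removal of the shared count. In the refit without the shared count, which called 11% of all genes higher, 12.2% lower and 23.2% in all, PCDHGC5 showed the largest change of the 4, from 1.04 and 0.801 to 2.14 and 1.83 CPM above the shared count, a log2 fold change of 1.12 ± 0.32 (SE, edgeR adjusted p = 0.00567). Only there PCDHA10 was called higher, at 0.73 ± 0.27, and PCDHGB4 lower, at -0.53 ± 0.18 (SE, edgeR adjusted p = 0.0350 and 0.0268). Both were singled out after that fit. The errors and p of the refit, that of PCDHGC5 included, may be too small, as the error of the subtracted count is left out. PCDHGB4 had 162 and 161 counts under DMSO and 115 and 89 under BIX, or 8.90 and 7.58 against 7.25 and 6.53 CPM. DESeq2 called 0 of the 22 members to which it gave an adjusted p, where PCDHGC3 had 0.0605 and PCDHGC5 0.260. With edgeR 2 of the 4 calls remained when t-hESC DMSO replicate 1, t-hESC DMSO replicate 2 or t-hESC BIX replicate 1 was left out. In the authors' deposited table no member was called under BIX, and 40 of the 53 had no adjusted p.

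**Figure D5:**
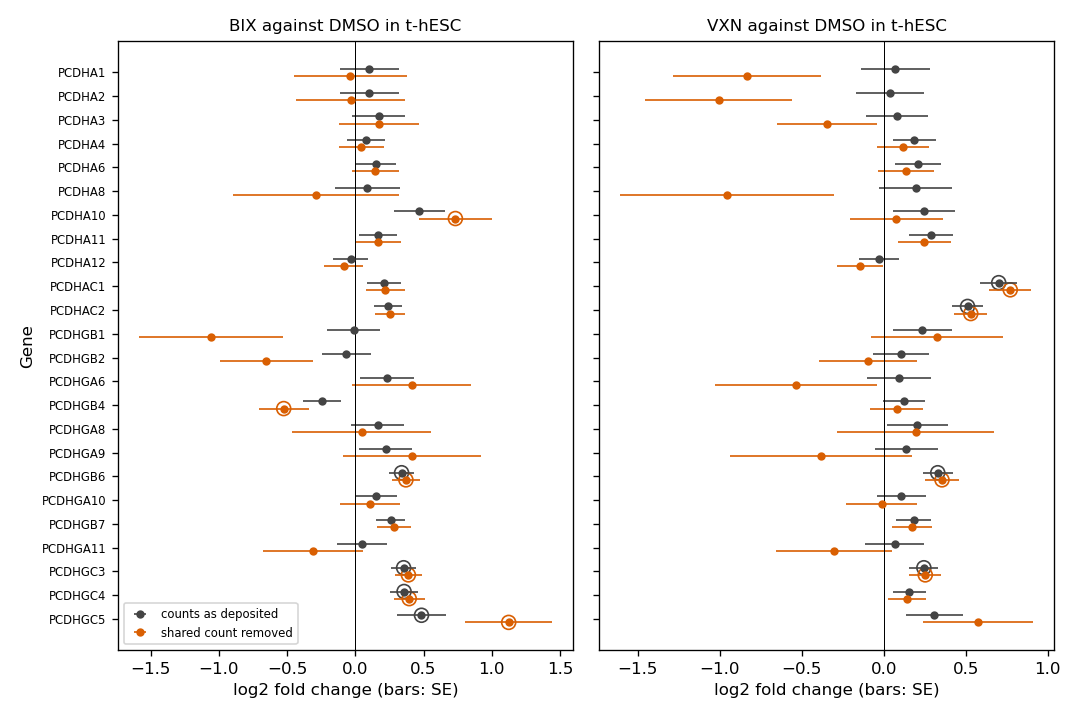
Log2 fold changes (points) with standard errors (bars) of the alpha and gamma genes that passed the count filter without the shared count, under BIX (left) and VXN (right) against DMSO in t-hESC, from counts as deposited (grey) and with the shared count removed (orange); a ring marks an edgeR adjusted p under 0.05. PCDHAC1 and PCDHAC2 stand out under VXN, at 0.70 and 0.51, and PCDHGC5 under BIX with the shared count removed, at 1.12.

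Both t-hESC comparisons share the DMSO libraries, and the compounds were given at different doses, so their values are set side by side only. PCDHAC1 had a log2 fold change of 0.21 ± 0.13 under BIX and 0.70 ± 0.11 under VXN (SE), and PCDHAC2 of 0.24 ± 0.10 and 0.51 ± 0.095. PCDHGC4 had 0.36 ± 0.10 under BIX and 0.16 ± 0.10 under VXN, and PCDHGC5 0.49 ± 0.18 and 0.31 ± 0.18. Once the shared count was removed PCDHGC5 had 1.12 ± 0.32 under BIX and 0.58 ± 0.34 under VXN, the latter not called (edgeR adjusted p = 0.214). The gamma shared count was 2.74 ± 0.011 CPM under DMSO, 3.11 ± 0.15 under BIX and 3.16 ± 0.076 under VXN (SD, n = 2), so the counts of gamma genes with little above it moved with it.

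Whether VXN acted differently in the 2 lines was tested with an interaction term. For PCDHAC2 the effect was larger in HT29 by 2.37 ± 0.22 on the log2 scale (SE, edgeR adjusted p = 2.17e-14), and by 2.36 with the shared count removed. As deposited 14 members, the alpha genes other than PCDHA10, had a larger effect in HT29 and none a smaller one, where 22.9% of all tested genes were called in that direction, 20.3% in the other and 43.2% in all. Once the shared count was removed PCDHAC2 was the 1 member called, with 22.9%, 20.4% and 43.2% of all genes called in these ways.

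Genes that act on these clusters or with their products were described from lists. Under VXN in HT29 26.9% of all tested genes were lower, 33% higher and 60% called in all, under VXN in t-hESC 14.6%, 14.5% and 29%, and under BIX 12.2%, 10.9% and 23.1%, and the counts of each list stand against these shares. Of 11 genes of cohesin and CTCF 7 were lower and 2 higher under VXN in HT29. CTCF, which encodes the protein that binds protocadherin promoters and enhancers, fell from 120 ± 1.6 to 77.2 ± 1.9 CPM (SD, n = 2). RAD21 and SMC1A, of the cohesin ring, fell by 1.14 ± 0.028 and 0.79 ± 0.037 on the log2 scale (SE), with edgeR adjusted p of 3.73e-44 and 3.35e-28. In t-hESC 6 of the 11 were lower and 1 higher under VXN, with CTCF at -0.20 ± 0.043, and 1 lower and 1 higher under BIX, with CTCF at -0.04 ± 0.043 (edgeR adjusted p = 0.582).

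Of 17 genes of DNA methylation and silencing 10 were lower and 5 higher under VXN in HT29 (26.9% and 33% of all genes). HELLS, UHRF1 and CDCA7, which act in the maintenance of DNA methylation, fell by 2.85, 2.52 and 2.42 on the log2 scale, and the maintenance methyltransferase gene DNMT1 fell by 1.35 ± 0.042 (SE). SMCHD1, a repressor known to act on these clusters, rose by 0.78 ± 0.040 (SE, edgeR adjusted p = 5.06e-27). EHMT2, which encodes G9a, fell by 0.67, WIZ rose by 0.20, and EHMT1 was at -0.08 (edgeR adjusted p = 0.0891). In t-hESC 11 were lower and 3 higher under VXN (14.6% and 14.5% of all genes), with DNMT3B at -0.45, SMCHD1 at -0.16, EHMT1 at -0.29, EHMT2 at -0.23 and WIZ at -0.16. Under BIX 5 were lower and 2 higher (12.2% and 10.9%), with DNMT3B at -0.08, while SMCHD1 at -0.01, EHMT1 at -0.04, EHMT2 at 0.04 and WIZ at 0.01 were not called. The part of these genes in the changes of the protocadherin genes was not tested.

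Of 21 neighbours within the surrounding region 20 were tested, and under VXN in HT29 10 were higher and 10 lower, where 33% and 26.9% of all tested genes were. Under VXN in t-hESC 4 were higher and 5 lower (14.5% and 14.6% of all genes), and under BIX 0 were higher and 6 lower (10.9% and 12.2%). TAF7 and SLC25A2 lie between the beta and gamma arrays. TAF7, a subunit gene of the general transcription factor TFIID, changed by 0.17 ± 0.035 under VXN in HT29 and by 0.21 ± 0.035 under VXN in t-hESC, and by -0.19 ± 0.037 under BIX (SE), and SLC25A2 had 0 or 1 counts in every library. DIAPH1, which starts 2.0 kb past the end of the gamma array, fell by 0.38 ± 0.032 under VXN in HT29 (SE, edgeR adjusted p = 8.97e-17). TAF7 and DIAPH1 were singled out for their place.

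Of 12 non-clustered protocadherin genes, which lie elsewhere in the genome, 11 were tested. 2 were higher under VXN in HT29, PCDH1 at 0.71 ± 0.041 (SE) and PCDH18, and 0 were lower, against 33% and 26.9% of all genes. Against 14.5% of all genes, 4 were higher under VXN in t-hESC, among them PCDH1 at 0.31 and PCDH12 at 1.29, and PCDH18 was lower at -0.39. Against 10.9% of all genes, 3 were higher under BIX, PCDH10 at 0.92 ± 0.18, PCDH19 at 0.72 ± 0.18 and PCDH18 at 0.30 ± 0.061 (SE), and 0 were lower. Of 12 genes for processing and partners of the proteins 8 were higher and 3 lower under VXN in HT29 (33% and 26.9% of all genes). Among them NCSTN, of the gamma-secretase complex that cleaves protocadherins, rose by 0.39, and the kinase gene PTK2B by 1.08. In t-hESC 1 was higher and 2 lower under VXN, and 0 and 2 under BIX.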

How the data were processed

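The labels describe TruSeq RNA v2 libraries, a kit that does not mark strand, so antisense reads cannot be told apart. Tools listed by the submitters' processing notes, without roles, are STAR, DESeq2 1.34.0, fastp 0.20.1 and FastQC 0.11.9, with build GRCh38. No source used here names the counting program or annotation. The deposited table holds raw counts for 60651 genes. 4 further columns match no sample and were not used, and 1181 repeat family rows were left out. The authors' log2 fold changes and adjusted p-values, deposited as comparison tables, were used for counts of calls only.

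Counts were fitted with edgeR 4.0.16 (TMM, filterByExpr with a minimum count of 10, robust quasi-likelihood F test) over all 10 libraries. Benjamini-Hochberg adjusted p under 0.05 over 22495 genes made a call. Standard errors are the log2 fold change over the root of F. The tests were also run on simulated counts built with a shared count, which cannot show whether that model holds in these data. Values are given for members called in a treatment comparison and the 3 most abundant of each cluster, and for listed genes by smallest p and fixed names. Members and lists were chosen with earlier results of these data known. Alternatives were other scalings, DESeq2 1.42.0, other filters, only the groups compared, a replicate block and each library left out. RefSeq tables (GRCh38.p14) gave positions and promoters. Protein sequences were not used here.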

Additional observations from a re-analysis of the deposited data

Results flagged for a closer look

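On the counts as deposited, the effect of VXN was larger in HT29 than in t-hESC for 14 alpha genes by the interaction term. These values stand out for that reason. The log2 differences (HT29 minus t-hESC) were 2.37 for PCDHAC2, 2.08 for PCDHAC1, 2.74 for PCDHA12, 2.67 for PCDHA2, 2.64 for PCDHA1, 2.62 for PCDHA3, 2.59 for PCDHA4, 2.51 for PCDHA8, 2.50 for PCDHA6, 2.49 for PCDHA11, 2.30 for PCDHA13, 2.27 for PCDHA7, 2.01 for PCDHA9 and 1.88 for PCDHA5. All but PCDHAC2 rested on HT29 counts of 1 to 3 under DMSO and 9 or 10 under VXN. Those counts lay at most 1 above the shared count, so they repeat 1 common change and are not separate effects. With the shared count removed PCDHAC2, at 2.36, was the 1 member called among 34 tested. Without HT29 DMSO replicate 2, 9 members were called instead of 14. Groups of 2 libraries allow no check for outlying samples.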

How the results depend on the processing

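The number of called members held within 1.5 times under other scalings, other count filters and the replicate block, and otherwise moved as follows. DESeq2 called 0 members under BIX, 2 under VXN in t-hESC and 9 for the difference of the VXN effects. With only the groups compared 3 were called under VXN in HT29, since 7 members were tested there. With the shared count removed 1 was called under VXN in HT29 and 1 for the difference. Leaving out each library gave 2 to 4 called members under BIX, 2 to 4 under VXN in t-hESC (2 without t-hESC VXN replicate 2), 15 to 17 under VXN in HT29, 9 to 15 for the difference and 45 to 47 between the lines. A group left with 1 library is assumed to vary like the others. The numbers did not pair the libraries, and the replicate block changed 1 named call, that of PCDHGA1 under VXN in HT29 (edgeR adjusted p = 0.0513).

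With the shared count removed the log2 value of PCDHA10 turned to -0.29 under VXN in HT29 and to -0.37 for the difference, and that of PCDHGA10 between the lines to 0.62. The summed alpha level became 47.2, 52.8, 56.9, 1.13 and 6.71 CPM in t-hESC DMSO, BIX and VXN and HT29 DMSO and VXN, and the summed gamma level 60.2, 71.6, 68.5, 7.84 and 8.01 CPM. Upper-quartile scaling gave 16.4 CPM for beta in t-hESC VXN, and for gamma 125 CPM in t-hESC DMSO and 10.7 CPM in HT29 VXN. Such scaling changes only the library size by which the counts are divided. Without the shared count 34 of the 47 members were tested, and fold changes of members at 0 in both libraries of a group are not given. Depth limits the HT29 results, where 13 alpha, 14 beta and 10 gamma genes had 3 counts or fewer in both DMSO libraries.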
